A study of Mus musculus with 7 samples.

Results

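Potassium channel subunit genes were examined in 7 arrays, 1 for each cell type or tissue. The members were all genes whose symbol in the platform annotation is Kcn followed by 1 to 4 letters and a number, and 80 of the 18194 measured genes were of this kind, represented by 158 probe sets. SK7_ESC stands for undifferentiated cells of SK7, a single ES line from a male mouse, which carries a GFP reporter under the Pdx1 promoter. Ect, End and Pme are ectoderm, endoderm and paraxial mesoderm derived from SK7 cells in culture. The 3 adult samples (Brain, Liver and Sk_muscle, the last being skeletal muscle) were taken from male ICR mice more than 9 weeks old, and whether animals were pooled is not stated. The labels give the ICR strain and male sex for all 7 samples, and neither a gene deletion nor a drug is named in them. The values are linear hybridization signals, scaled by the authors in each array. Among the probe sets of a gene, the 1 that was brightest on the mean log2 scale gave its signal. A signal of 50 or less was taken as background. The word called is used of a gene whose signal passed background and whose ratio to the other array, the dimmer signal first being raised to 50, reached 2, in which case it counts as higher. A ratio against a signal under background is therefore a lower bound and is written as "at least". Each group has 1 array and no replicate, so differences are given by their size, without a test. In tissue RNA, fewer cells of a type and less RNA in each cell cannot be told apart. Signals are compared between arrays for the same gene and not between genes.

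Potassium channels let potassium ions leave or enter the cell, and they set the resting potential and end the action potential. The pore is built from subunits of several families. Voltage-gated (Kv) subunits open on depolarization, ether-a-go-go and Kv7 subunits are voltage-gated relatives with slow or special gating, inward rectifiers (Kir) pass current best at negative potentials, K2P (tandem pore, Kcnk) subunits carry leak current, and a further group opens on intracellular calcium or sodium. Auxiliary subunits bind the pore proteins and alter their gating and their transport to the membrane. Neurons use many of these genes at once, glia use inward rectifiers to take up potassium, and muscle fibres use a smaller set.

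Apart from Pme, the arrays carried most marker genes of their labels. All 10 neuron genes, all 5 astrocyte genes and all 4 measured oligodendrocyte genes were above background in Brain, all 6 measured hepatocyte genes in Liver and all 7 skeletal muscle genes in Sk_muscle. All 5 pluripotency genes were above background in SK7_ESC, 4 of 5 ectoderm genes in Ect and all 5 endoderm genes in End. The Pme array met its label least well, with 2 of 5 paraxial mesoderm genes above background (Pdgfra and Pax3), while Tbx6, Meox1 and Tcf15 had signals of 17.7, 16 and 29.1. Pdgfra was 1062.2 in Pme and at most 231.7 elsewhere, while Pax3 was 56.6 in Pme and 363.4 in Ect. Of 5 smooth muscle and pericyte genes, 3 were above background in Pme, as were 3 of 5 endoderm genes and all 4 fibroblast genes. The number of genes above background ran from 7810 (Liver) to 9075 (Brain).

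Potassium channel genes were mostly under background in the cultured cells and were measured above all in Brain. Above background were 40 of the 80 genes in Brain and 16 in Sk_muscle, against 7 in SK7_ESC, 5 each in Liver and End, and 4 each in Pme and Ect. Among all genes, 49.9% were above background in Brain and 43.3% in Sk_muscle, with 42.9% in Liver, 44.4% in SK7_ESC, 45.5% in End, 47.1% in Ect and 47.4% in Pme. The share of potassium channel genes was thus 50% in Brain, where it was near the background share, 20% in Sk_muscle, and between 5% and 8.75% in the other 5 arrays. The median signal of the 80 genes was 48.3 in Brain, beside 49.6 for all genes. It was 13.8 in Sk_muscle and between 6.65 and 7.85 in the other 5 arrays, where the median of all genes lay between 32.4 and 40.9. At least 1 array had a signal above background for 50 of the 80 members (68.5% of all genes), and 0 members were above background in all 7, whereas 27.8% of all genes were above background in all 7 arrays. In all, 11 members passed background in any of the cultured arrays, and 34 of the 40 genes measured in Brain were in none of the cultured arrays. The share of all genes for this last count was not taken. Above background in Brain and in no other array were 26 members, 32.5% beside 5.03% of all genes.

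**Figure D1:**
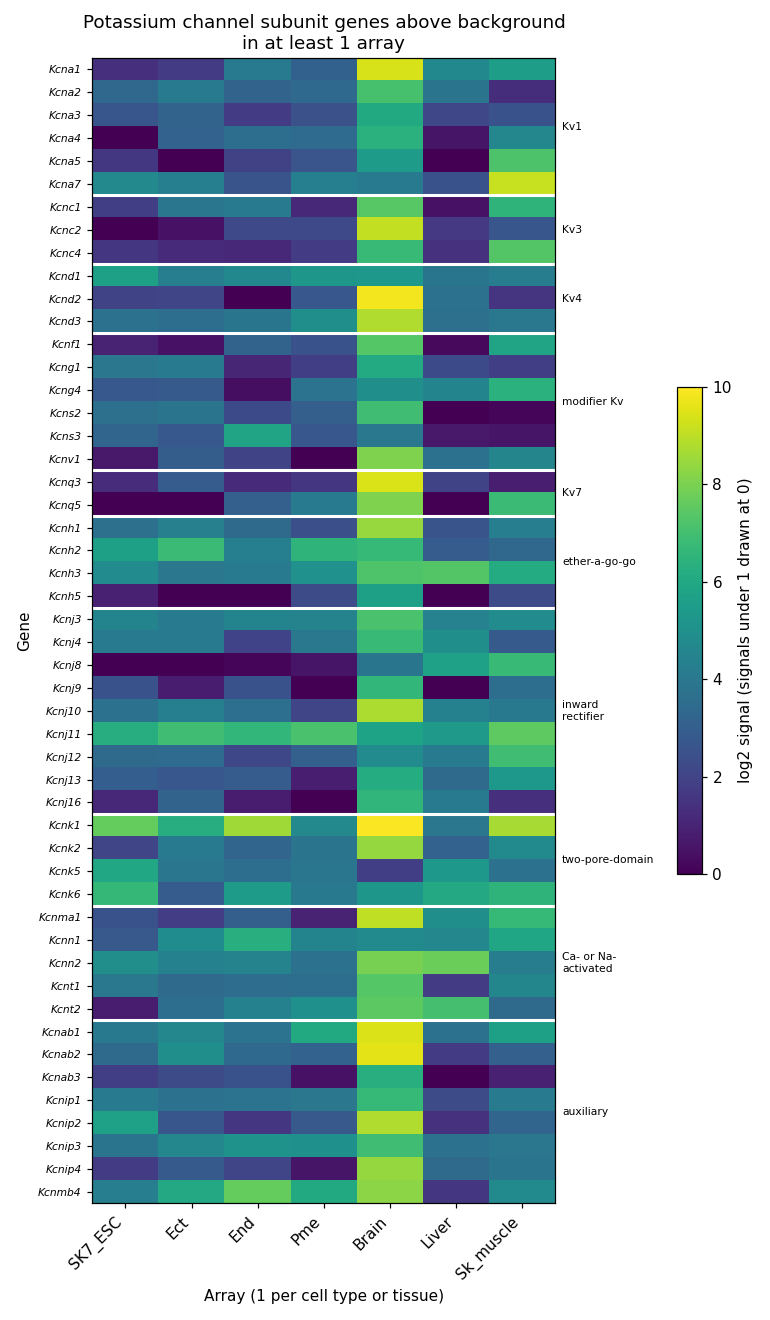
Log2 signals of the 50 potassium channel subunit genes that passed background somewhere; each row is a gene, each of the 7 columns a single array, and white lines divide the subfamilies. Colours are to be compared within a row. Of the 50 genes, 36 (72%) have their highest signal in Brain, beside 21.5% of all genes above background somewhere. In Sk_muscle 7 have theirs, beside 2256 of the 12468 such genes among all genes.

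Brain was the array that most members marked. Called higher in Brain than in each of the other 6 arrays were 24 of 80 members, or 30%, beside 6.69% of all genes. Called higher in Sk_muscle than in each of the other arrays were 4, which is 5% of the members and the same share as the 5% of all genes. In SK7_ESC, Ect, End, Pme and Liver 0 members were called so, against 1.19%, 0.698%, 0.726%, 0.737% and 5.6% of all genes. Of the 24 genes higher in Brain, 18 encode pore-forming or modifier subunits and 6 encode auxiliary subunits. The choice of probe set mattered for Kcna2, Kcnd3, Kcnf1, Kcnip1, Kcnj3, Kcns2 and Kcnt1, whose ratios of Brain to the next array were at most 1.64 with the geometric mean of the probe sets, under the rule. The probe sets not used had 700.3, 407.9 and 0.6 in Brain for Kcna2. They had 331.7, 146.4 and 6.2 there for Kcnj3, and 153.8, 16.1 and 6.2 for Kcnip1. For Kcnd3, Kcnf1, Kcns2 and Kcnt1 the probe sets not used were all dimmer in Brain than the one used. Arrays scaled to the same median put Kcnip1, Kcnip3, Kcnj4, Kcnk1, Kcnq5 and Kcns2 under it, at 1.55 to 1.86, and quantile normalization Kcnip1, Kcnj4 and Kcnq5, at 1.73 to 1.97.

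**Figure D2:**
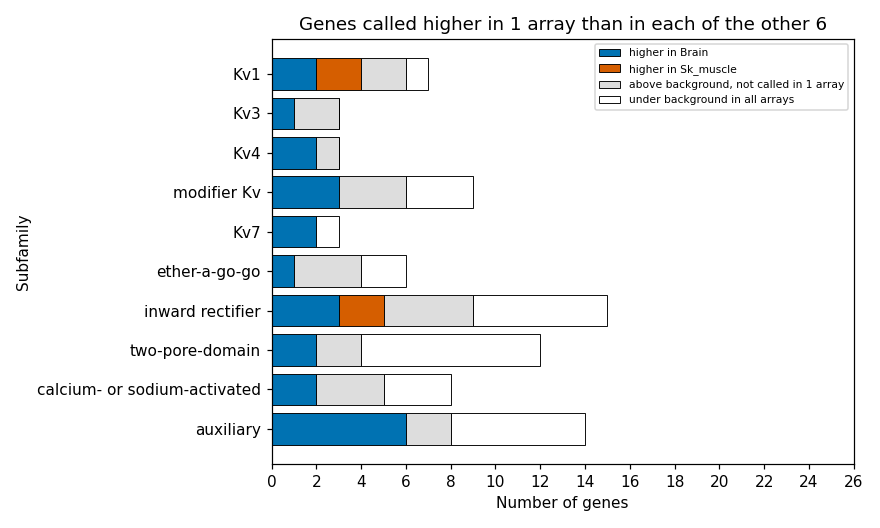
Number of potassium channel subunit genes in each subfamily, divided into those called higher in Brain or in Sk_muscle than in each of the other 6 arrays, those above background but not called in 1 array, and those under background in all arrays. The auxiliary subunits have the most genes called in Brain (6 of 14), and only the Kv1 and inward rectifier subfamilies have genes called in Sk_muscle (2 each).

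The Kv1 genes, which encode delayed rectifier and axonal potassium channels, were divided between brain and muscle. Kcna1, whose product sits along axons beside the nodes of Ranvier, had signals of 670.6 in Brain, 47.1 in Sk_muscle, 25.4 in Liver, 8.7 in Pme, 17.2 in End, 3.3 in Ect and 2.6 in SK7_ESC. It was at least 13.4-fold higher in Brain than in any other array. Kcna2, its frequent partner in the same tetramers, had 134.6 in Brain, 2.5 in Sk_muscle, 14.3 in Liver, 10.6 in Pme, 9 in End, 17 in Ect and 10.3 in SK7_ESC, at least 2.69-fold higher in Brain. Kcna3 and Kcna4 were also above background in Brain alone, at 67.7 and 84.8, but lay too near to background to be called. Kcna5 had 44.6 in Brain, 146.1 in Sk_muscle, 0.9 in Liver, 6.3 in Pme, 3.9 in End, 0.7 in Ect and 3.1 in SK7_ESC. Kcna7, a Kv1 gene of striated muscle, had 17.8 in Brain, 574.2 in Sk_muscle, 5.8 in Liver, 19.9 in Pme, 6.1 in End, 20.1 in Ect and 26.2 in SK7_ESC. Both were above background in muscle alone, at least 2.92-fold higher there for Kcna5 and at least 11.5-fold for Kcna7. For Kcna6 the probe set used here was under background throughout, with 34.3 at most, whereas its other probe sets had 64.1 and 98.5 in Brain and at most 18.3 elsewhere.

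The Kv3 genes encode channels of fast-firing neurons. Kcnc2 had 549.1 in Brain, 6.4 in Sk_muscle, 3.2 in Liver, 4.6 in Pme, 4.6 in End, 1.4 in Ect and 0.3 in SK7_ESC, so that Brain alone passed background, at least 11.0-fold above the rest. Kcnc1 was 170.0 in Brain, 90.0 in Sk_muscle and at most 17.2 in the other 5 arrays. Kcnc4 had its highest signal in Sk_muscle, at 160.8, beside 108.2 in Brain and at most 3.3 elsewhere. These Kcnc4 signals came from a probe set whose identifier marks shared sequence. The other Kcnc4 probe set was under background, at 47.8 in Brain and 36.7 in Sk_muscle. With the probe sets used, the difference between the 2 tissues was under the 2-fold rule for both genes. The other Kcnc1 probe sets had 327.4 in Brain against 36.6 in Sk_muscle, 103.5 against 43.7, and 2.1 against 10.2. The first and second of these pairs pass the rule. The Kv4 genes encode the A-type channels of dendrites. Kcnd2 had 904.5 in Brain, 2.9 in Sk_muscle, 13.8 in Liver, 6.5 in Pme, 0.2 in End, 4.2 in Ect and 4.1 in SK7_ESC. Its ratio of Brain to any other array was at least 18.1 with this probe set and 2.02 with the geometric mean of its 4 probe sets. Kcnd3 had 452 in Brain, 16 in Sk_muscle, 12.9 in Liver, 31.9 in Pme, 14.9 in End, 12.1 in Ect and 13.7 in SK7_ESC, at least 9.04-fold higher in Brain, or 1.12-fold with the geometric mean. Only the probe set used for Kcnd3 and another, at 69.8 in Brain, were above background, and the remaining probe sets had 26.5 and 11.9 there. Kcnd1 was 51.0 in SK7_ESC and under background in all other arrays.

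Modifier Kv subunits form no channel of their own and join other Kv subunits to alter their gating. Of 9 such genes, 4 passed background in Brain, where 3 were called. Kcnv1 had 268.1 in Brain, 23.5 in Sk_muscle, 13.3 in Liver, 1 in Pme, 4.1 in End, 7.8 in Ect and 1.6 in SK7_ESC. Kcnf1 had 164.1 in Brain, 57.1 in Sk_muscle, 1.2 in Liver, 5.8 in Pme, 9.1 in End, 1.4 in Ect and 2 in SK7_ESC, so that muscle was above background too. Kcns2 had 121 in Brain, 1.1 in Sk_muscle, 0.9 in Liver, 8.2 in Pme, 4.7 in End, 14.3 in Ect and 12.9 in SK7_ESC. The ratios of Brain to the next array were at least 5.36, 2.87 and at least 2.42. Kcng1 was 69.1 in Brain alone and Kcng4 was 83.4 in Sk_muscle alone. Kcns3 was above background in End alone, at 57.6, and its other probe set had 74.6 in End and at most 27.2 in the other arrays.

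Kv7 channels carry the M-current, which restrains repeated firing of neurons. Kcnq3, a subunit of the neuronal M-channel, had 700.8 in Brain, 1.8 in Sk_muscle, 4.1 in Liver, 3 in Pme, 2.3 in End, 7.5 in Ect and 2.4 in SK7_ESC, at least 14.0-fold higher in Brain. Kcnq5 had 268.5 in Brain, 113.6 in Sk_muscle, 0.7 in Liver, 17.7 in Pme, 8.4 in End, 0.7 in Ect and 0.9 in SK7_ESC, and Brain and muscle were 2.36-fold apart. Kcnq1, known from heart and inner ear, was under background in all arrays. Among the ether-a-go-go genes, Kcnh1 had 354.8 in Brain, 19.6 in Sk_muscle, 6.1 in Liver, 5.5 in Pme, 11.1 in End, 20.2 in Ect and 13 in SK7_ESC, at least 7.10-fold higher in Brain. Kcnh5 was 51.4 in Brain, just above background, and at most 4.9 elsewhere. Kcnh2, the subunit of the cardiac IKr current, had a different pattern, with 112.9 in Ect, 104.7 in Brain, 91.2 in Pme and 51.7 in SK7_ESC, against 19.8 in End, 10.2 in Sk_muscle and 7.5 in Liver. Kcnh2 was thus near its Brain signal in Ect and Pme, and barely above background in SK7_ESC. Kcnh3 had 152.1 in Brain, 70.9 in Sk_muscle, 161 in Liver, 33 in Pme, 16.9 in End, 15.6 in Ect and 28 in SK7_ESC with a probe set whose identifier marks shared sequence. Its other probe sets above background were highest in Brain, at 141.6 against 97.8 in Liver and at 55.6 against 55.2 in Liver, so that the order of Brain and Liver was not settled by these values.

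The inward rectifiers, with 15 measured genes, were spread over more tissues. Kcnj10, the main inward rectifier of astrocytes and oligodendrocytes, had 438.4 in Brain, 16.3 in Sk_muscle, 20.9 in Liver, 4.2 in Pme, 12.6 in End, 19.9 in Ect and 13.8 in SK7_ESC, at least 8.77-fold higher in Brain. The astrocyte genes Gfap and Slc1a3 had 225.3 and 738.8 in Brain and at most 26.8 and 38.1 in the other arrays. Slc1a2 had 3011.8 in Brain, 118.2 in Liver and 94 in Ect. Aqp4 had 597 in Brain and 510 in Sk_muscle, and Aldh1l1 had 160.2 in Brain and 3505 in Liver. The astrocyte list was thus not particular to Brain, and the part of glia in the Kcnj10 signal was not tested. Kcnj3, a subunit of the G protein-gated channels of neurons, had 140.0 in Brain, 28 in Sk_muscle, 21.6 in Liver, 22.4 in Pme, 22.8 in End, 17.4 in Ect and 23 in SK7_ESC. Kcnj4 had 107.9 in Brain, 7.2 in Sk_muscle, 31.9 in Liver, 16.1 in Pme, 4 in End, 17.3 in Ect and 17 in SK7_ESC. Brain was at least 2.80-fold and 2.16-fold above the other arrays for these genes. The ratio was 1.61 for Kcnj3 with the geometric mean, and for Kcnj4 1.84 after quantile normalization and 1.63 after scaling to the same median, all under the rule. Kcnj9, another G protein-gated subunit, was 98.9 in Brain and at most 12.4 elsewhere, just under the rule, while another of its probe sets had 416.5 in Brain and at most 7.5 elsewhere. Kcnj16 was 96.7 in Brain and at most 18.1 elsewhere. Kcnj13, a gene of epithelia such as the choroid plexus, was 73.6 in Brain and 39.8 in Sk_muscle. Ttr, which the choroid plexus secretes as well as the liver, was 4211.7 in Brain, and the part of choroid plexus in Kcnj13 was not tested.

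In skeletal muscle, the measured inward rectifiers were those of the classical muscle current and of the ATP-sensitive channels. Kcnj12, which encodes a strong inward rectifier, had 28.3 in Brain, 123.2 in Sk_muscle, 17.6 in Liver, 8.3 in Pme, 4.5 in End, 11.3 in Ect and 10.9 in SK7_ESC, at least 2.46-fold higher in Sk_muscle. Kcnj11, the pore of the ATP-sensitive channel of muscle, neurons and beta cells, was 184.6 in Sk_muscle, 139.1 in Pme, 121.7 in Ect, 98.3 in End, 75.3 in SK7_ESC, 55.3 in Brain and 41.9 in Liver. Kcnj11 was above background in more arrays than any other member, 6 of 7. Its second probe set was above background in Sk_muscle alone, at 88.0, and had between 1.8 and 20.6 in the other arrays, so that the signals in cultured cells rest on 1 of 2 probe sets. Kcnj8, the ATP-sensitive subunit of vascular smooth muscle and pericytes, had 14.9 in Brain, 107.7 in Sk_muscle, 53 in Liver, 1.5 in Pme, 1.1 in End, 0.9 in Ect and 0.5 in SK7_ESC. It was 2.03-fold higher in Sk_muscle than in Liver, or 1.98-fold after quantile normalization, and under background in Brain and in culture. Abcc9, the sulfonylurea receptor that assembles with Kcnj8, stood in the same order, with 391.7 in Sk_muscle, 76.4 in Liver, 20.8 in Brain and at most 6.3 in culture. Abcc8, the receptor that assembles with Kcnj11 in neurons and beta cells, was 54.8 in Brain and at most 24.8 elsewhere. The smooth muscle and pericyte genes summed to 5364 in Sk_muscle, 794.9 in Liver, 620.7 in Brain and 4228 in Pme, 4 of 5 being above background in Sk_muscle, and the endothelial genes to 940.6 in Sk_muscle, 300.3 in Liver, 111.4 in Brain and 206.2 in Pme. In Pme the signals were 1351 for Rgs5, 2383 for Acta2 and 464.5 for Tagln. Myh11 and Cnn1 were under background there, at 7.7 and 21.4. Rgs5 was also 392.8 in Brain, 697.7 in Liver and 3072.3 in Sk_muscle. The part of vessel cells in the Kcnj8 signal of tissues was not tested. Kcnj2, the other classical inward rectifier of muscle, had its highest signal in Sk_muscle, at 35.2, which is under background.

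K2P genes contributed few measured members, 4 of 12 being above background in any array. Kcnk2, which encodes the mechanically and lipid-gated channel TREK-1, had 338.5 in Brain, 26.9 in Sk_muscle, 8.9 in Liver, 14.4 in Pme, 9.5 in End, 17.6 in Ect and 4.3 in SK7_ESC, at least 6.77-fold higher in Brain. Kcnk1 was the member with the widest range in culture, and its signals were 978.6 in Brain, 417.4 in Sk_muscle, 385.3 in End, 197.2 in SK7_ESC, 74.8 in Ect, 25.9 in Pme and 15.7 in Liver. Brain was 2.34-fold above Sk_muscle, and 1.65-fold after scaling to the same median, under the rule. Kcnk5 was 63.1 in SK7_ESC, its highest signal elsewhere being 39.8, and its second probe set was also brightest in SK7_ESC, at 111.9. That probe set had at most 49 in the other arrays, so that with it Kcnk5 would be called higher in SK7_ESC. Kcnk6 was 101.4 in SK7_ESC, 90.5 in Sk_muscle, 64.9 in Liver, 45.9 in End, 38.9 in Brain, 16.3 in Pme and 7.5 in Ect.

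Calcium-activated and sodium-activated channels were measured in brain, muscle and liver. Kcnma1, the pore of the large-conductance (BK) channel, had 524.5 in Brain, 103.2 in Sk_muscle, 31.6 in Liver, 2 in Pme, 8.2 in End, 3.5 in Ect and 5.8 in SK7_ESC, 5.08-fold higher in Brain than in Sk_muscle. Its probe sets disagreed on this order, since 1 of them had 171.9 in Sk_muscle and 120.6 in Brain, and another had 220.1 in Brain and 26.7 in Sk_muscle. Kcnt1, a sodium-activated channel, had 166.6 in Brain, 24.1 in Sk_muscle, 3.4 in Liver, 12.4 in Pme, 12 in End, 11.1 in Ect and 16 in SK7_ESC, at least 3.33-fold higher in Brain. Both Kcnn2 and Kcnt2 were measured in Brain and in Liver. Kcnn2, a small-conductance calcium-activated channel, was 246.1 in Brain and 213.4 in Liver and between 13.3 and 30.6 in the other arrays. Kcnt2 was 177.0 in Brain and 133.3 in Liver, and between 1.7 and 32.8 elsewhere. Of the 5 members above background in Liver, Kcnn2 and Kcnt2 were at least 4.27-fold and 2.67-fold higher there than in Sk_muscle, and Kcnh3 was 2.27-fold higher. The other Kcnh3 probe sets above background had 97.8 and 55.2 in Liver against 53 and 30.5 in Sk_muscle, under the rule. Kcnn1 had 27.4 in Brain, 61.2 in Sk_muscle, 24.5 in Liver, 23.1 in Pme, 76.7 in End, 29.1 in Ect and 7 in SK7_ESC, whereas its second probe set was highest in Sk_muscle, at 58.1, beside 49.5 in End.

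Of the 14 auxiliary subunit genes, the 6 called in Brain are all partners of Kv channels. Kcnab1 and Kcnab2, the cytoplasmic beta subunits of Kv1 channels, were both called in Brain. Kcnab1 had 711.4 in Brain, 50.8 in Sk_muscle, 13.6 in Liver, 67.5 in Pme, 14.2 in End, 25 in Ect and 16.6 in SK7_ESC, 10.5-fold higher in Brain than in Pme. Kcnab2 had 776.2 in Brain, 8.4 in Sk_muscle, 3.3 in Liver, 8.9 in Pme, 10.8 in End, 31.5 in Ect and 11.1 in SK7_ESC, at least 15.5-fold higher in Brain. Kcnab3 was 79.6 in Brain and at most 5.8 elsewhere. The Kcnip genes, whose calcium-binding products attach to Kv4 channels, were all called in Brain. Kcnip2 had 446.8 in Brain, 9.5 in Sk_muscle, 2.7 in Liver, 7 in Pme, 3 in End, 6.4 in Ect and 53.1 in SK7_ESC, 8.41-fold higher in Brain than in SK7_ESC. Kcnip4 had 337.6 in Brain, 14.4 in Sk_muscle, 10.9 in Liver, 1.5 in Pme, 4.3 in End, 7.2 in Ect and 3.4 in SK7_ESC, at least 6.75-fold higher in Brain. Kcnip3 was 123.2 in Brain and at most 34 elsewhere, and its ratio fell to 1.86 after scaling to the same median. Kcnip1 was 102.6 in Brain and at most 17.9 elsewhere, and its call was lost with the geometric mean, after quantile normalization (1.73) and after scaling to the same median (1.55). Of the pore genes of these complexes, Kcna1, Kcna2, Kcna3, Kcna4, Kcnd2 and Kcnd3 also had their highest signals in Brain, whereas Kcna5 and Kcna7 had theirs in Sk_muscle and Kcnd1 in SK7_ESC. The transmembrane partners of Kv4 channels, Dpp6 and Dpp10, were 293.9 and 268.6 in Brain and at most 27.1 elsewhere. Kcnmb4, the neuronal beta subunit of BK channels, was 304.7 in Brain, 201.0 in End, 66.9 in Pme, 65.5 in Ect, 27.7 in Sk_muscle, 19.2 in SK7_ESC and 3.0 in Liver. Kcnmb1 and Kcnmb2 and the 4 Kcne genes, which modify Kv7 and other channels, were under background in all arrays.

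**Figure D3:**
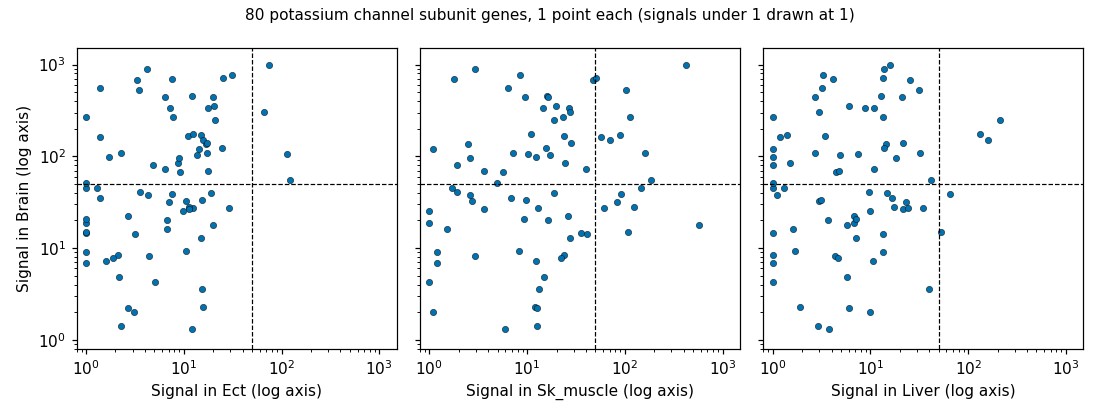
Signals of the 80 potassium channel subunit genes in Brain (vertical axis) against Ect, Sk_muscle and Liver (horizontal axes), 1 point for each gene and 1 array for each axis, on log axes with dashed lines at the background of 50. The upper left field of each panel, genes above background in Brain only, is the fullest above the horizontal line; 4 genes pass background in Ect, 16 in Sk_muscle and 5 in Liver.

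Few potassium channel genes were called between SK7_ESC and a germ layer, and few were above background there. Members above background in the layer or in SK7_ESC numbered 8 of 80 for Ect, 10 for End and 9 for Pme, against 9321, 9002 and 9312 of the 18194 genes. A gene under background in both arrays cannot be called, so the shares below, taken over all 80 members, are bounded by these numbers. In Ect, 1 member was called higher than in SK7_ESC and 2 lower, that is 1.25% and 2.5% of the members beside 6.62% and 4.89% of all genes. In End, 1 was higher and 1 lower, beside 4.89% and 3.81% of all genes, and in Pme 0 were higher and 2 lower, beside 6.74% and 4.55%. These comparisons share the SK7_ESC array. Kcnh2 was the gene higher in Ect, 2.18-fold, or 1.83-fold after quantile normalization and 1.87-fold after scaling to the same median, both under the rule, and in Pme it was 1.76-fold above SK7_ESC, under the rule. Kcnmb4 was the gene higher in End, at least 4.02-fold. Kcnk6 was lower in all 3 layers, at least 2.03-fold, its signal in each layer being under background. Kcnk1 was 2.64-fold lower in Ect and at least 3.94-fold lower in Pme, whereas in End it was 1.95-fold above SK7_ESC.

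Between the layers, End stood apart for 2 genes. Called higher in End than in both other layers were Kcnk1 and Kcnmb4, 2.5% of the members beside 1.86% of all genes, and 0 members were called so in Ect or Pme, beside 1.82% and 2.06%. Kcnk1 in End was 5.15-fold above Ect and at least 7.71-fold above Pme. Its second probe set had the same order, with 175.2 in End, 78.5 in SK7_ESC, 14.7 in Ect and 14.8 in Pme. Kcnmb4 has 1 probe set and was 3.07-fold higher in End than in Ect, whose signal was near that of Pme. Kcnj5, the partner of Kcnj3 in the atrial channel, was under background with the probe set used here, at 33.5 in End, but its other probe set was 84.2 in End and between 1.0 and 6.8 in every other array. Kcns3 and Kcnn1, described above, were likewise above background in End and in no other cultured array.

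**Figure D4:**
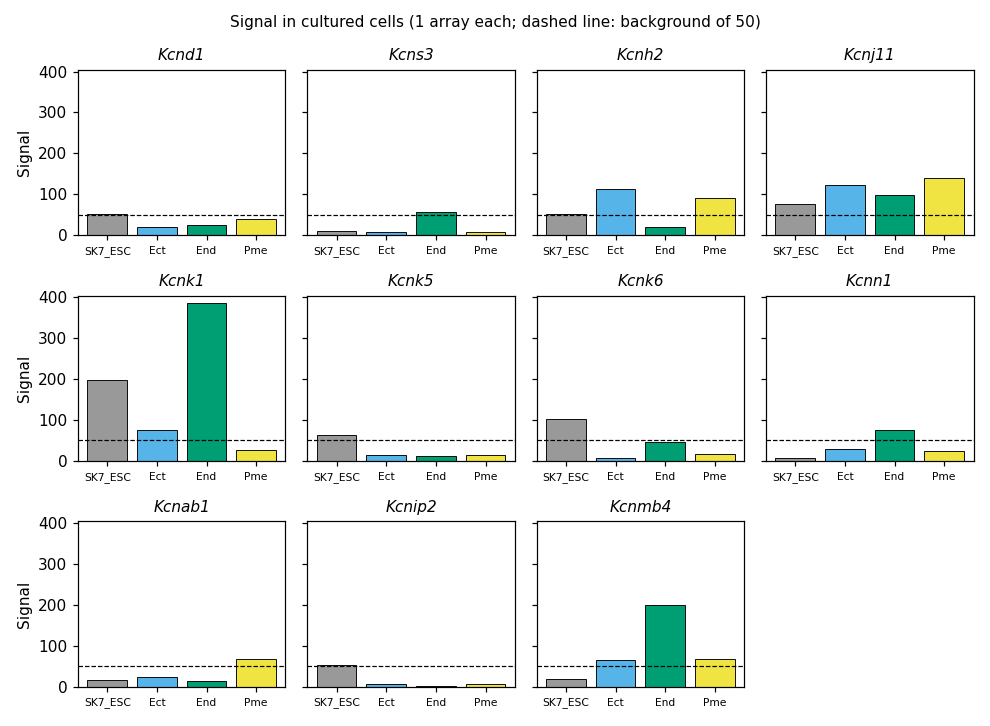
Signals of the 11 potassium channel subunit genes above background in at least 1 of the 4 cultured arrays (1 array each; bars start at 0, dashed lines mark the background of 50). Kcnk1 (385.3) and Kcnmb4 (201.0) stand highest in End, and Kcnk5 and Kcnk6 are above background in SK7_ESC and in no layer.

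The ectoderm culture had little of the potassium channel set of adult brain. Higher in Brain than in Ect were 30 of the 80 genes, or 37.5%, beside 12.3% of all genes, and 1 was lower, beside 13.8%. The gene lower in Brain was Kcnj11, 2.20-fold, whereas its second probe set was under background in both arrays, at 8.4 in Ect and 20.6 in Brain. Of the neuron genes, 7 of 10 were above background in Ect, with a summed signal of 2037.5 against 20168.5 in Brain. The sum was also 1548.6 in SK7_ESC and 1160.5 in End, where Stmn2 alone had 1275.4 and 1053.5, so it does not measure neuron content. Tubb3 alone was higher in Ect than in Brain, at 721.2 and 532.4. The part of neuron number in the difference was not tested. Of the 40 members above background in Brain, Kcnh2, Kcnj11, Kcnk1 and Kcnmb4 were above background in Ect as well. Ect had 5% of the members above background, beside 47.1% of all genes. Between adult tissues, 26 members were higher in Brain than in both Liver and Sk_muscle, 32.5% beside 10.8% of all genes. In Sk_muscle 5 were higher than in both other tissues, 6.25% beside 7.47%, and in Liver 0 were, beside 7.71%.

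Other channels of excitable membranes were counted from lists of related genes, beside the 6.69% of all genes called in Brain and the 5% called in Sk_muscle. Of 11 measured sodium channel genes, 7 were above background in Brain and 1 in Ect, and 5 were called higher in Brain than in each other array, among them Scn2a at 1101.6 in Brain and Scn2b at 802.0. Scn4b was 917.6 in Sk_muscle and 262.6 in Brain. Of 24 calcium channel genes, 17 were above background in Brain and 5 in Sk_muscle, with 7 called in Brain and 4 in Sk_muscle. Cacna1s, the voltage sensor of muscle contraction, was 588.4 in Sk_muscle and at most 13 elsewhere, and Cacnb4 was 681.8 in Brain. In SK7_ESC, Pme and Liver 0 genes of both lists were above background. Of 2 HCN genes, Hcn2 was called in Brain, at 111.7. Of 18 proteins known to bind or organise potassium channels, 5 were called in Brain and 2 in Sk_muscle. Lgi1, a secreted protein bound to Kv1 complexes, was 757.8 in Brain and at most 17.9 elsewhere. Of 4 sodium pump genes, 1 was called in Brain, Atp1b2, at 558.6 against 269.9 in Sk_muscle.

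Neighbouring members did not share a tissue in every case. By the order of protein-coding genes in RefSeq, 9 pairs of measured members are direct neighbours. Kcna2 and Kcna3 were both highest in Brain, as were Kcnj9 and Kcnj10. Kcna1 lies between Kcna5 and Kcna6, and it was measured in Brain at 670.6 while Kcna5 was highest in Sk_muscle at 146.1. Kcnj16 and Kcnj2 are neighbours with their highest signals in Brain and in Sk_muscle, the latter under background.

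CpG content at the gene start was counted for the members called in Sk_muscle and in Brain. The study this series belongs to relates DNA methylation to CpG content, and so the start windows are shown for the members with the largest ratios that have 1 window in the RefSeq table, 2 called in Sk_muscle, 2 called in Brain and the gene higher in End. Each window runs from 250 bases before to 50 bases after the start of the gene, 300 bases in all, on the strand of the gene and 5′ to 3′, with the coordinates of GRCm38.p6. Each CpG dinucleotide (the letters CG, which read the same on both strands) is in capitals. Kcna7 lies at chr7:45405710-45406009 on the plus strand, Kcna5 at chr6:126535506-126535805 on the minus strand, Kcnd2 at chr6:21215096-21215395 on the plus strand, Kcnd3 at chr3:105451640-105451939 on the plus strand and Kcnmb4 at chr10:116473474-116473773 on the minus strand.
Kcna7: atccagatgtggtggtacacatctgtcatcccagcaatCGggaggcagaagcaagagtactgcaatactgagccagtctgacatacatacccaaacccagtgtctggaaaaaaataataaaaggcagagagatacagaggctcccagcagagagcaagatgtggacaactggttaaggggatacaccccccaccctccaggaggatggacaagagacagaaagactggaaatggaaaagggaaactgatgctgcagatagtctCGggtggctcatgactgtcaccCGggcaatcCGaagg
Kcna5: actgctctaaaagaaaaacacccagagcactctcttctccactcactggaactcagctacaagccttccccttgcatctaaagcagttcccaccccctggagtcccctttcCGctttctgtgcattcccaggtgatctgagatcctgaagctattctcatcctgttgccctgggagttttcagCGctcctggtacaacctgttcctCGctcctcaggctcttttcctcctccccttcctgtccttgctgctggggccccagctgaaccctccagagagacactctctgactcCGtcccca
Kcnd2: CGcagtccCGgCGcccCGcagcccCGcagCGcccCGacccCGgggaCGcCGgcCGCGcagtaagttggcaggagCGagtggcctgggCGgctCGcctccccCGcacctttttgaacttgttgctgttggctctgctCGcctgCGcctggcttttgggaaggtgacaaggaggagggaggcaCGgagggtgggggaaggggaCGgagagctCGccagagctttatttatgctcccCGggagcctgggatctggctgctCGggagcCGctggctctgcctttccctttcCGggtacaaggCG
Kcnd3: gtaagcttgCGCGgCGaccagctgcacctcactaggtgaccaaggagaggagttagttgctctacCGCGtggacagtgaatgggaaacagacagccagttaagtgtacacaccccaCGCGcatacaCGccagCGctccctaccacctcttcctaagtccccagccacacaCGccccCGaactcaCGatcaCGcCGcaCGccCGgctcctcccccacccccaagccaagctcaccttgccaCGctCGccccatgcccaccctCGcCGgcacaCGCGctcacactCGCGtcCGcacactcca
Kcnmb4: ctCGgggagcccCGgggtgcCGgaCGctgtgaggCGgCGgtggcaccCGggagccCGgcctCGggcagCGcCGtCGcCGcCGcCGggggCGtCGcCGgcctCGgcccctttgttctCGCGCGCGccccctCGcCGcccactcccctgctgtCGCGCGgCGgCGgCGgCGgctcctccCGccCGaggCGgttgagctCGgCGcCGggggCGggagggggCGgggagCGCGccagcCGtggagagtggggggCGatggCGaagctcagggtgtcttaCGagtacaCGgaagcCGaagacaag

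The muscle windows of Kcna7 and Kcna5 held 4 CpG each, those of Kcnd2 and Kcnd3 held 26 and 25, and that of Kcnmb4 held 48. Of the 80 members, 61 had a window in the table, and where a gene had several, the window with the most CpG was taken. The 4 genes called in Sk_muscle, Kcna7, Kcna5, Kcnj12 and Kcnj8, had between 4 and 9 CpG, with a median of 4. The 19 genes called in Brain that had a window ranged from 3 to 41, with a median of 21. For 23 members under background in all arrays the median was 10, for all 61 members it was 16, and for the 14453 measured genes with a window it was 18. Windows with at least 15 CpG made up 68.4% of those of genes called in Brain, 34.8% of those of genes under background throughout and 59.0% of those of all measured genes with a window. With all windows counted the medians were 7 for genes called in Brain and 4 for genes called in Sk_muscle. Of these windows, 40% and 0% had at least 15 CpG. In that count a gene with several windows enters more than once, and each gene called in Sk_muscle has 1 window. Among genes called in Brain with 1 window, Kcnf1, Kcnj3 and Kcnk1 held 3, 10 and 10 CpG. The others held between 18 (Kcnip2) and 41 (Kcnj4). The letters GGGCGG, searched on both strands and overlapping the CpG count, were in 12 of 19 windows of genes called in Brain and in 0 of the 4 called in Sk_muscle, and in 56.1% of the windows of all measured genes. The letters CAGCTG were in 4 of the 19, in 1 of the 4 and in 15.9% of all, and TATAAA in 0, in 0 and in 9.35%, so that 3 motifs were searched in all. These are descriptions of sequence, and with 4 genes called in muscle nothing was tested.

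**Figure D5:**
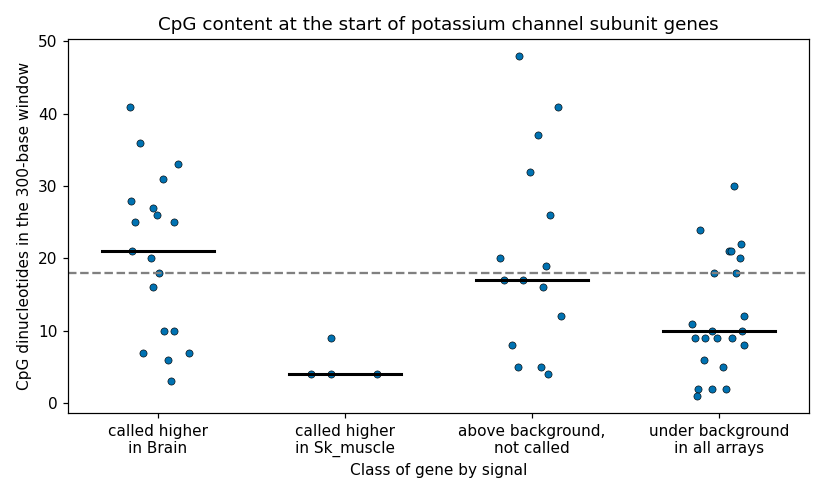
Number of CpG dinucleotides in the 300-base window at the start of each of 61 potassium channel subunit genes (1 point per gene, the window with the most CpG), by class of signal, with black lines at the medians. The dashed grey line is the median of 18 over all measured genes with a window; the 4 genes called in Sk_muscle lie between 4 and 9, and those called in Brain between 3 and 41.

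With the probe set used for each gene, the remaining members were under background in all 7 arrays, 30 of the 80 or 37.5%, beside 31.5% of all genes. Kcna6 and Kcnj5 among them have other probe sets above background, as given above. The 30 were Kcna6, Kcng2, Kcns1, Kcnv2, Kcnq1, Kcnh7, Kcnh8, Kcnj1, Kcnj2, Kcnj5, Kcnj6, Kcnj14, Kcnj15, Kcnk3, Kcnk4, Kcnk7, Kcnk10, Kcnk12, Kcnk13, Kcnk15, Kcnk16, Kcnn3, Kcnn4, Kcnu1, Kcne1 to Kcne4, Kcnmb1 and Kcnmb2. Several are known from kidney, heart, pancreas or testis, which were not sampled here. Others had their highest signal in Brain, among them Kcnk3 at 45.2, Kcnk13 at 40.4 and Kcnh7 at 38. Why the 30 genes were under background was not tested. Their highest signals ran from 5.1 for Kcne1 to 45.2 for Kcnk3 in Brain. Just inside the background rule were Kcnd1 at 51.0 in SK7_ESC and Kcnh5 at 51.4 in Brain, and just outside it Kcnk3 at 45.2 in Brain and Kcne4 at 41.1 in Sk_muscle.

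Where a gene had several probe sets, they mostly named the same array. Of 45 members with at least 2 probe sets, 29 had 2 or more above background in some array, and in 26 of these the probe sets above background were all brightest in the same array. The 3 exceptions were Kcnh3, Kcnma1 and Kcnn1, described above.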

How the data were processed

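RNA of 7 samples was hybridized to Affymetrix GeneChip mouse expression arrays, 1 array for each sample. The deposited table holds a linear intensity for each of 45101 probe sets, which the authors scaled globally so that the signals of an array average 100, and how probes were summarised is not stated. After removal of 2% of probe sets at either end, each array had a mean of 100. Gene names came from the platform annotation: 34958 probe sets have 1 gene symbol, 932 have several and 9211 are unnamed here. All 80 members were matched by Entrez identifier to RefSeq (GRCm38.p6), with the same symbols. Signals under 0.1 were raised to 0.1 before log2, and taking the brightest probe set by mean log2 signal left 18194 genes.

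Background was 50 and the ratio rule 2. With 1 array for each group there is no estimate of spread and no p-value is given; the number of arrays limits the precision. The rule was checked by simulation, in which 18194 genes of SK7_ESC were compared with a noisy copy (log2 SD 0.2, an assumed size): 1 of 50 genes changed 1.5-fold was called, 50 of 50 at 3-fold, 4-fold and 8-fold each, and 0 of 17994 unchanged genes. The changed genes were drawn only from genes brighter in SK7_ESC than any member, the highest member signal there being 197.2. For dimmer genes, raising signals to 50 hides part of a change, so these rates do not carry over to the members. All 7 signals are given for members called in 1 array (up to 4 in each subfamily by ratio, and all of those called in Sk_muscle), for members called in a layer, and for members whose probe sets disagree on the brightest array. The other members described, and the values of second probe sets, were chosen after they were seen. The members and lists were chosen with earlier results of these data known. The alternatives were a background of 20 or of 100, the geometric mean over the probe sets of a gene, arrays brought to 1 median, quantile normalization, omission of probe sets with shared-sequence identifiers, and a 3-fold rule. Start windows are RefSeq sequences. Python 3.11.15, numpy 2.4.6, pandas 2.3.3 and matplotlib 3.10.9 served for computing. DNA methylation was not analysed here.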

Additional observations from a re-analysis of the deposited data

Results flagged for a closer look

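Kcnk1 moved in opposite directions in the germ layers. Relative to SK7_ESC its signal ratio was 1.95 in End, 0.379 in Ect and 0.254 in Pme, where the Pme signal was raised to background first. The rise in End was just under the 2-fold rule, both falls passed it, and the difference between the layers was not tested, since each layer has 1 array. The 3 ratios share the SK7_ESC array. A closer look was prompted by the ratio being at least 1.5-fold up in 1 layer and at least 1.5-fold down in another, which held for 1 of the 80 genes.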

How the results depend on the processing

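No test was run, and precision is limited by 1 array for each group. No paired analysis was possible because each group has 1 array. The ratios recomputed were the 35 behind the calls in 1 array or against SK7_ESC; other ratios were not recomputed. None of the 35 reversed, and under the rule fell 17 with a background of 100, 17 with the 3-fold rule, 7 with the geometric mean, 7 with median scaling and 5 with quantile normalization. Leaving out probe sets with shared-sequence identifiers moved no count beyond 1.5 times. Members called in Brain against each other array numbered 24, and 33 under a background of 20, 16 under one of 100, 15 under the 3-fold rule, 17 with the geometric mean, 24 without shared-sequence probe sets, 18 after median scaling and 21 after quantile normalization. With signals raised only to 0.1, the median log2 ratio of all genes in Brain over SK7_ESC was 0.15 as deposited. It was -0.23 after quantile normalization and -0.53 after scaling to the same median. With signals raised to background, as in the calls, this median was 0 in all of these settings. Calls in Brain are relative to the scaling, as their numbers of 24, 21 and 18 show.

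With a background of 20, members above background numbered 12 in SK7_ESC, 11 in Ect, 12 in End, 12 in Pme, 16 in Liver and 30 in Sk_muscle. Higher and lower than in SK7_ESC were 2 and 5 in Ect, 3 and 5 in End, and 2 and 4 in Pme. Higher than both other layers were 5 in End and 1 in Pme, 1 was higher in End than in all other arrays, 8 were higher in Sk_muscle than in both other tissues, and 11 calcium channel genes were called in Brain.

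With a background of 100, members above background numbered 2 in SK7_ESC, 2 in Ect, 2 in End, 1 in Pme, 3 in Liver and 9 in Sk_muscle. Higher in Ect than in SK7_ESC were 0, while lower than in SK7_ESC were 0 in Pme, 0 in End and 0 in Ect. Sk_muscle had 1 member higher than all other arrays and 1 higher than both other tissues, Brain had 17 higher than both other tissues and 18 higher and 0 lower than Ect, and 0 HCN genes were called in Brain.

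After quantile normalization 0 members were higher in Ect than in SK7_ESC, 0 HCN genes and 2 sodium pump genes were called in Brain, and after scaling to the same median these were 0, 0 and 0. With the geometric mean, members above background numbered 4 in SK7_ESC, 2 in Ect, 2 in Pme and 10 in Sk_muscle, 2 were higher in End than in SK7_ESC, and 0 were lower in Brain than in Ect.

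With the 3-fold rule, 15 members were called in Brain and 1 in Sk_muscle against all other arrays, 16 in Brain and 2 in Sk_muscle against both other tissues, 0 were higher in Ect than in SK7_ESC, 0 lower in Ect, 0 lower in End and 1 lower in Pme, 0 were lower in Brain than in Ect, and 0 HCN genes and 0 sodium pump genes were called in Brain. The cause of these shifts was not tested beyond the changed setting itself.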
